A study of Rattus norvegicus with 20 samples.

Results

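Marker genes of 2 minor cell types of liver, 10 in all, were followed across the livers of 20 male rats. They are 5 stellate cell markers (Pdgfrb, Fn1, Des, Lrat and Reln) and 5 cholangiocyte markers (Sox9, Spp1, Epcam, Krt19 and Krt7). Each was found by its gene name in the deposited table of 32883 genes, where each name had 1 row, so that all 10 were located. All 10 were among the 11867 genes with values high enough to be tested. The study gave rats one of 4 treatments, with 5 rats and 1 liver library per rat in each group. CON rats received the vehicle, sodium carboxymethylcellulose at 0.5%. BGZ_L rats were dosed with BGZ_L powder, 0.9 g/kg; the series title speaks of Psoraleae Fructus as the remedy under study. KYDS rats were given hydrocortisone (25 mg/kg), a glucocorticoid that serves here to induce the syndrome for which the group is named, kidney-yang deficiency, and the KYDS+BGZ_L group had both agents at these doses. No strain or age of the rats is given in the labels.

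Hepatic stellate cells lie between hepatocytes and sinusoidal endothelium, store vitamin A as retinyl esters, and can turn into collagen-making myofibroblasts when the liver is injured. Cholangiocytes line the bile ducts, which run in the portal tracts beside the hepatic artery and portal vein, whose walls hold smooth muscle and fibroblasts. Both are minorities in a tissue that is mostly hepatocytes, so the levels of their marker genes in whole liver are low and depend on how much of each structure a piece of tissue holds. In such bulk samples, fewer cells of a type and less RNA per cell cannot be told apart.

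Levels are given as TPM, a unit of abundance per transcript length that lets genes be set against each other, after a scaling between libraries that takes most genes as unchanged. The deposited values summed to 914343 to 983962 per library, and read depth is unknown, since TPM keeps no totals. The 13 mitochondrially encoded genes held 65.6% to 90.1% of TPM in CON, 39.6% to 81.9% in BGZ_L, 19.2% to 68.9% in KYDS and 26.6% to 70.2% in KYDS+BGZ_L libraries. The scaling factors reached from 0.231 in CON 2 and 0.345 in BGZ_L 3 to 2.01 in KYDS 2. As a check of the tissue, 8 hepatocyte marker genes summed to 5390 to 65920 scaled TPM per library, against 8.90 to 61.2 for the 5 stellate markers and 2.12 to 37.8 for the 5 cholangiocyte markers.

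With hydrocortisone, 2 of the 10 genes rose and the other 8 did not pass the test. Pdgfrb, the receptor through which platelet-derived growth factor drives stellate cell growth and movement, and Fn1, the matrix protein fibronectin, were higher in both hydrocortisone groups than in the group given the same treatment without hydrocortisone. Des, Lrat and Reln, the other stellate markers, were not called with them. The 5 cholangiocyte markers differed from rat to rat within every group, most of them several-fold, and none passed in any comparison.

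In order of their median over 20 libraries, Fn1 was highest at 12.6 scaled TPM, followed by Pdgfrb at 4.40, Krt19 at 4.07, Reln at 1.66, Des at 1.57, Epcam at 1.31, Spp1 at 1.07, Lrat at 0.668, Sox9 at 0.383 and Krt7 at 0.259. Neighbours in this order often changed places, and Des and Epcam were each the higher of their pair in 10 of 20 libraries. The clearest step was between Fn1 and Pdgfrb, where Fn1 was higher in 17 of 20 libraries, and Krt19 exceeded Reln in 15 of 20. The 2 lowest genes passed the filter narrowly, with at least 0.5 scaled TPM in 7 libraries for Sox9 and in 5 for Krt7.

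**Figure D1:**
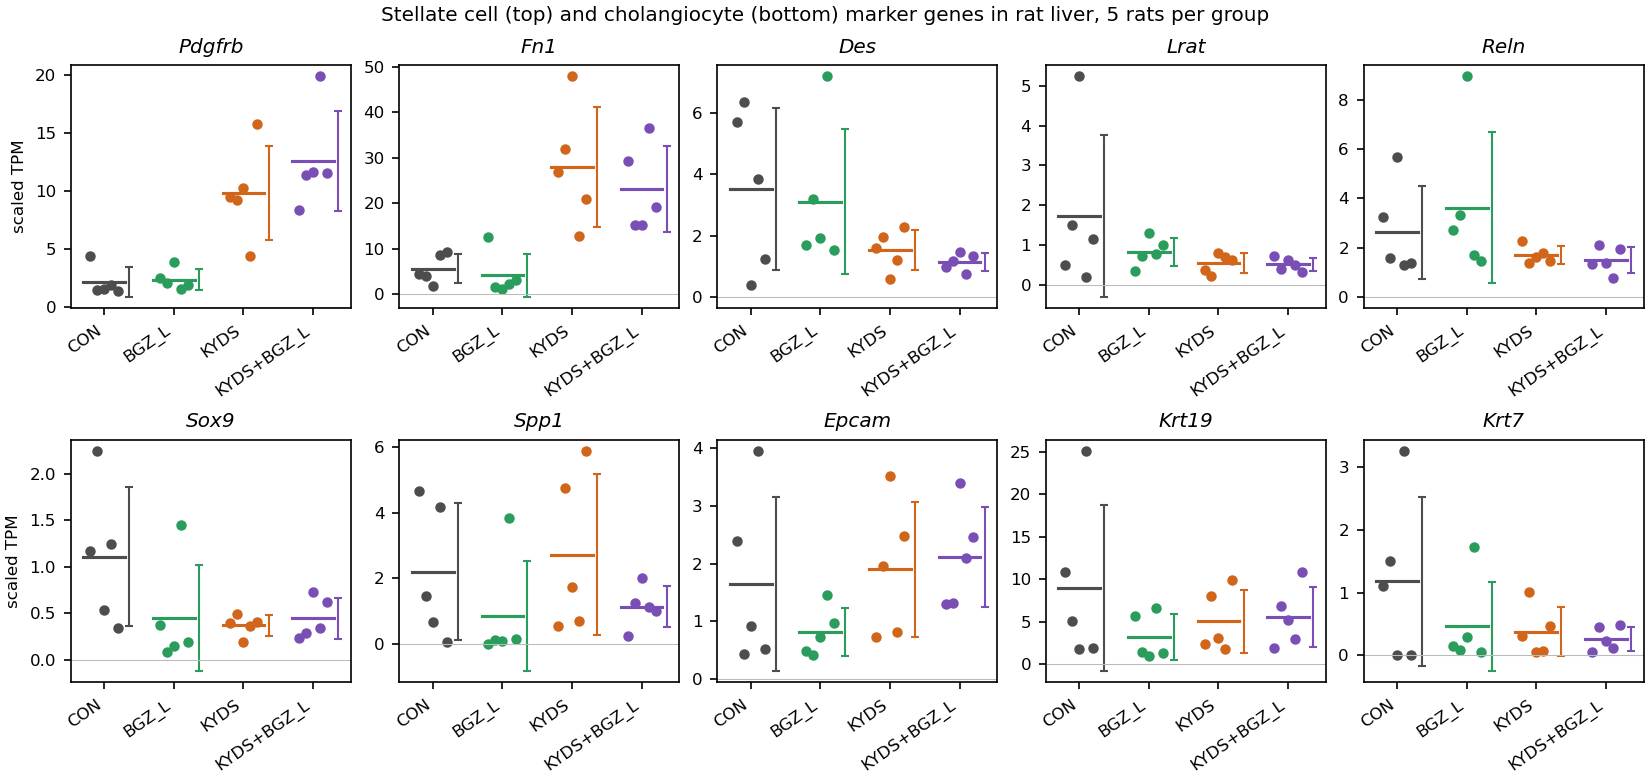
Scaled TPM (vertical axis, linear, its range set for each gene) of the 5 stellate markers (top) and 5 cholangiocyte markers (bottom) in the 4 groups. Points are single rats, horizontal lines are group means and bars are 1 SD (n = 5); Pdgfrb and Fn1 are high in the groups with hydrocortisone, while the other panels show groups that overlap or nearly touch.

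Pdgfrb stood at 4.42, 1.43, 1.52, 1.88 and 1.38 scaled TPM in CON rats 1 to 5, and at 9.49, 9.20, 10.2, 4.38 and 15.8 in KYDS rats 1 to 5. Rat CON 1 lay just above rat KYDS 4, so these groups met at 1 rat each, and the other 4 KYDS rats lay above every CON rat. The difference was 1.98 ± 0.33 on the log2 scale (SE; n = 5 per group; 3.95-fold; limma adjusted p = 0.00230). With BGZ_L in both groups, Pdgfrb was 2.44, 2.08, 3.85, 1.502 and 1.85 in BGZ_L rats 1 to 5, against 8.34, 11.4, 11.6, 19.9 and 11.5 in KYDS+BGZ_L rats 1 to 5. Those 2 groups did not overlap, and the difference was 2.20 ± 0.33 (SE; 4.58-fold; limma adjusted p = 0.000574).

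Fn1 encodes a protein that stellate cells and fibroblasts lay down in the matrix and that hepatocytes also secrete into plasma, so in whole liver it is not a marker of stellate cells alone. Its level was 4.40, 3.98, 1.79, 8.60 and 9.19 in CON rats 1 to 5, and 26.8, 31.9, 47.9, 12.7 and 20.8 in KYDS rats 1 to 5. Every KYDS rat lay above every CON rat, and Fn1 was 2.28 ± 0.51 higher (log2, SE; 4.86-fold; limma adjusted p = 0.0168). In BGZ_L rats it was 12.5, 1.49, 1.10, 2.21 and 3.06, and in KYDS+BGZ_L rats 29.3, 15.2, 15.1, 36.6 and 19.1. Rat BGZ_L 1 was the only one of its group above 4 scaled TPM, the groups again did not overlap, and the difference was 2.74 ± 0.51 (log2, SE; 6.68-fold; limma adjusted p = 0.00252).

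For KYDS against CON, 2 of 10 markers passed, where 6.27% of all genes tested passed (3.25% higher). In KYDS+BGZ_L against BGZ_L the same 2 of 10 passed, where 17.4% of all genes passed (8.82% higher). Groups that did not overlap, with hydrocortisone higher, made up 3.33% of all genes in the first comparison, where Fn1 was 1 of 10, and 7.2% in the second, where Pdgfrb and Fn1 were 2 of 10. KYDS+BGZ_L against CON, which shares control rats with the first comparison, also called these 2 (11.5% of all genes passed), with Pdgfrb at 2.37 ± 0.33 (log2, SE; limma adjusted p = 0.000308) and Fn1 at 2.05 ± 0.51 (limma adjusted p = 0.0170). In this comparison Fn1 missed the threshold without rat KYDS+BGZ_L 1 (limma adjusted p = 0.05415) and without rat KYDS+BGZ_L 4 (limma adjusted p = 0.0592), and without rat CON 3 the call of Des was added.

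**Figure D2:**
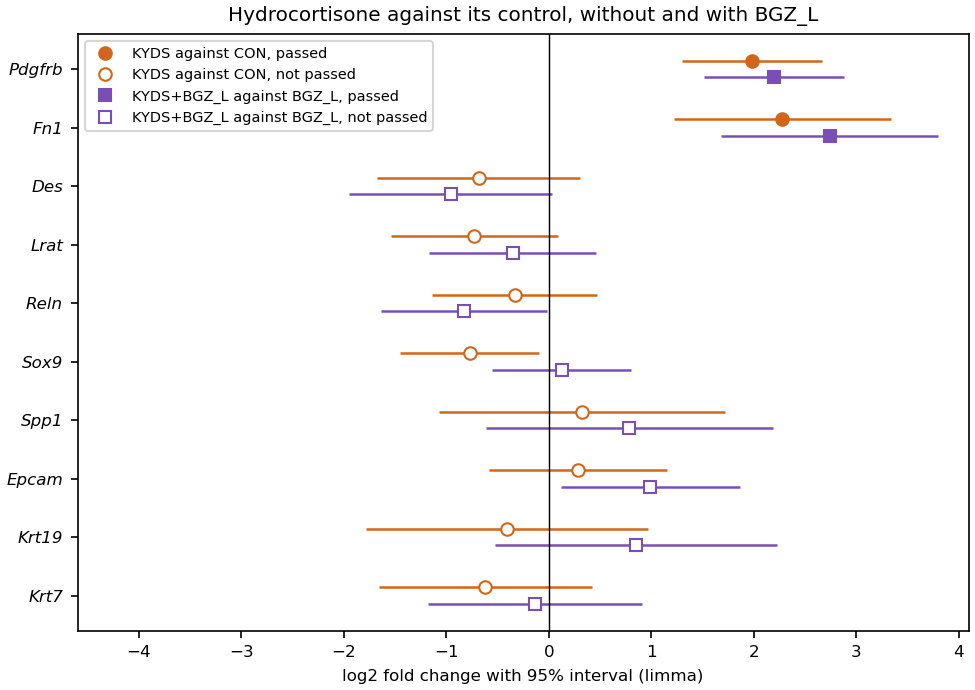
Log2 fold change (horizontal axis) of each marker gene for KYDS against CON (circles) and KYDS+BGZ_L against BGZ_L (squares), with 95% intervals from limma. Filled symbols passed the adjusted threshold; Pdgfrb and Fn1 lie between 1.98 and 2.74, and the other 8 genes between -0.96 and 0.99.

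BGZ_L itself left the 10 genes without a call. In BGZ_L against CON 0 of 10 passed by limma, 1 of 10 (Sox9) had an unadjusted p under 0.05 (6.02% of all genes did), and 0% of all genes passed. Pdgfrb differed by 0.17 (95% interval -0.51 to 0.85) and Fn1 by -0.70 (-1.75 to 0.36). All 5 cholangiocyte markers had negative fold changes there, from -1.17 for Spp1 to -0.49 for Epcam, with limma adjusted p from 0.783 to 0.896. In KYDS+BGZ_L against KYDS 0 of 10 passed by limma, 0 of 10 had an unadjusted p under 0.05 (3.42% of all genes did), and 0.126% of all genes passed. Pdgfrb was 0.38 higher (-0.30 to 1.07) and Fn1 -0.24 (-1.29 to 0.82) when BGZ_L was added. The interaction, which asks whether the effect of hydrocortisone differed with BGZ_L, called 0 of 10 by limma, with 0 of 10 at an unadjusted p under 0.05 (3.76% of all genes) and 0.0253% of all genes called. Its intervals were wide, at -0.75 to 1.18 for Pdgfrb and -1.04 to 1.96 for Fn1.

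Fn1 followed the make-up of the libraries closely. Across 20 libraries its log2 level had a Pearson correlation of 0.813 with the library's ratio of nuclear to mitochondrial TPM (log2), and 0.755 after each group's mean was removed. The same correlations were 0.678 and 0.313 for Pdgfrb. The ratio does not depend on the scaling, which does enter the levels. With this ratio as a covariate, Fn1 in KYDS against CON fell to 0.96 ± 0.45 (log2, SE; limma adjusted p = 0.677) and Pdgfrb to 1.65 (limma adjusted p = 0.145), and 0.194% of all genes were called. In KYDS+BGZ_L against BGZ_L both kept their calls with the covariate, Fn1 at 2.01 (limma adjusted p = 0.00703) and Pdgfrb at 2.01 (limma adjusted p = 0.00342), where 5.64% of all genes were called.

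**Figure D3:**
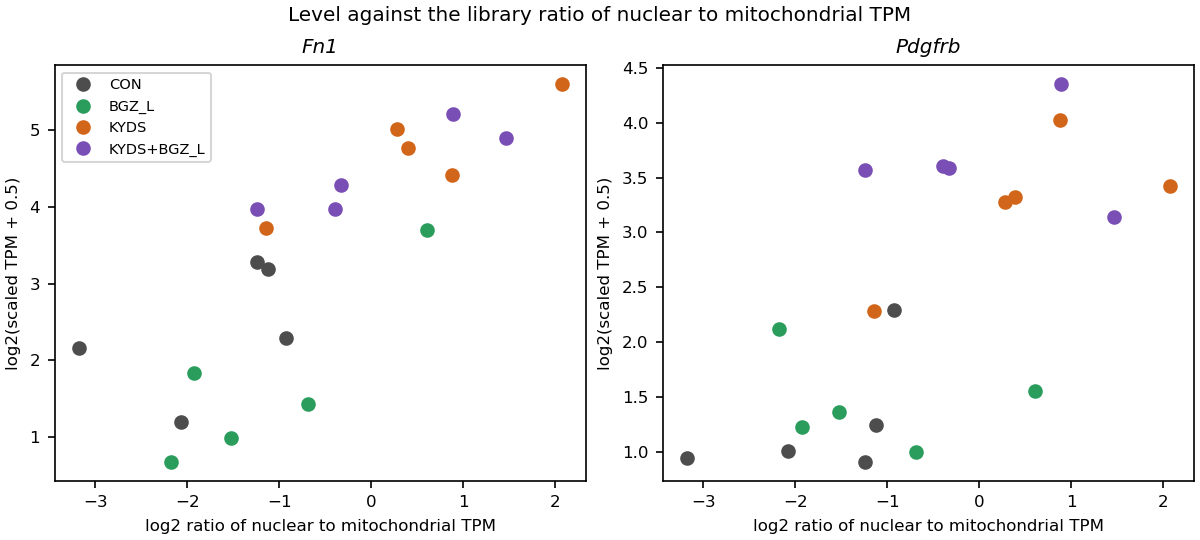
Log2 of scaled TPM plus 0.5 of Fn1 (left) and Pdgfrb (right) against each library's ratio of nuclear to mitochondrial TPM (log2), with 1 point per rat coloured by group. Fn1 rises with the ratio within groups as well as between them (r = 0.813 over 20 libraries), and Pdgfrb does so less (r = 0.678).

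Hepatocyte markers moved in the same comparisons, in which 3.25% and 8.82% of all genes rose. Of 8 tested, 2 rose in KYDS against CON, Ttr (transthyretin, 2.39 ± 0.61 log2, limma adjusted p = 0.0302) and Tf (transferrin, 1.41 ± 0.40, limma adjusted p = 0.0464, held in 9 of 20 fits without 1 library), and 5 rose in KYDS+BGZ_L against BGZ_L, Alb (albumin) by 2.42 among them. The sum of the 8 hepatocyte markers was 5390 to 9690 scaled TPM in CON, 5458 to 6416 in BGZ_L, 6505 to 65920 in KYDS and 9509 to 46310 in KYDS+BGZ_L libraries. Their part in the rise of Fn1 and Pdgfrb was not tested. Within groups, 2 of 8 hepatocyte markers correlated with Fn1 at 0.5 or more (13.8% of all genes did), and 3 of 8 with Pdgfrb (2.37% of all genes did). This was not particular to hepatocyte markers for Fn1, which 4 of 14 other cholangiocyte genes and 5 of 10 vitamin A genes other than Lrat also reached. With Pdgfrb these were 0 of 14 and 0 of 10. Of 18 other stellate genes, 0 reached 0.5 with Fn1 and 0 with Pdgfrb.

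The genes of the stellate lineage outside the marker set gave no matching rise. Of 18 other stellate genes tested, 0 rose in KYDS against CON, where 3.25% of all genes did. An unadjusted p under 0.05 was found for 6 of the 18 (24% of all genes). Only 1 of the 18 fell by limma, where 358 of 11867 genes fell. That gene was Vim, the intermediate filament vimentin, at 20.4 ± 6.13 in CON and 9.99 ± 2.28 in KYDS (SD, n = 5; fell by 0.96 ± 0.27 log2, limma adjusted p = 0.0435). Its call was lost in 11 of 20 fits that left out 1 library and in the fit with the replicate number as a block (limma adjusted p = 0.0695), and with no scaling it stood at 0.35, under the median of 1.03 that all genes then had. In KYDS+BGZ_L against BGZ_L 0 of the 18 rose, where 8.82% of all genes did, and 9 had an unadjusted p under 0.05 (32.3% of all genes). There 2 fell, where 1014 of 11867 genes fell. They were Tcf21 by 0.92 (a transcription factor of the stellate lineage, limma adjusted p = 0.0425, a call that held in 9 of 20 fits without 1 library) and Ntm by 1.05 (neurotrimin, under 1.1 scaled TPM in every library, limma adjusted p = 0.0178). These counts of calls lie near the shares over all genes. The median fold change over the 18 was -0.42 and -0.50 in these comparisons, beside 0.05 and 0.06 over all genes.

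Des encodes desmin, the intermediate filament of muscle that rat stellate cells also carry. It was 5.72, 6.35, 0.405, 3.84 and 1.24 scaled TPM in CON rats 1 to 5 and 1.60, 1.94, 0.603, 1.22 and 2.28 in KYDS rats 1 to 5, so 3 CON rats lay above all KYDS rats and 1 CON rat lay below all of them. In BGZ_L rats it was 1.71, 3.20, 1.91, 7.20 and 1.54, and in KYDS+BGZ_L rats 0.994, 1.19, 1.47, 0.741 and 1.33, and these groups did not overlap (5.97% of all genes were lower without overlap). The fold changes were -0.68 ± 0.48 and -0.96 ± 0.48 (log2, SE; limma adjusted p = 0.393 and 0.170), so neither passed.

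Lrat makes the retinyl esters that stellate cells store, and Reln encodes reelin, a secreted glycoprotein that marks stellate cells in liver. Lrat ranged from 0.206 to 5.24 in CON, 0.351 to 1.303 in BGZ_L, 0.219 to 0.813 in KYDS and 0.336 to 0.737 in KYDS+BGZ_L libraries. Rat CON 3 alone gave the value of 5.24, and every other rat was at or under 1.51. Reln ranged from 1.28 to 5.67 in CON, 1.45 to 8.95 in BGZ_L, 1.38 to 2.27 in KYDS and 0.769 to 2.13 in KYDS+BGZ_L libraries. Its highest values were in rats BGZ_L 3 and CON 3. With hydrocortisone Lrat differed by -0.73 and -0.35 and Reln by -0.33 and -0.83 on the log2 scale (the second value of each pair with BGZ_L in both groups), and their limma adjusted p lay between 0.144 and 0.630.

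Krt19 and Krt7, the keratins that distinguish bile duct cells from hepatocytes, differed widely between rats of the same group. Krt19 stood at 10.9, 5.06, 1.81, 25.2 and 1.87 in CON rats 1 to 5, at 5.64, 1.39, 0.927, 6.62 and 1.31 in BGZ_L rats, at 2.44, 8.07, 3.09, 1.79 and 9.96 in KYDS rats and at 1.91, 6.92, 5.26, 2.97 and 10.9 in KYDS+BGZ_L rats. All 4 groups overlapped. Krt7 was listed at 0 in rats CON 3 and CON 5 and reached 1.11, 1.51 and 3.27 in rats CON 1, CON 2 and CON 4 of the same group. Outside CON, Krt7 exceeded 1 scaled TPM only in rats BGZ_L 4 (1.73) and KYDS 2 (1.01).

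Spp1, which encodes osteopontin, and Sox9, the transcription factor that sets biliary identity, were as variable over the 20 libraries. Epcam, an epithelial adhesion molecule of ducts, varied less, with a range of 9.47-fold over 20 libraries, where Krt19 had 27.2-fold. Within KYDS+BGZ_L it lay between 1.31 and 3.39 scaled TPM. Spp1 was 4.65, 1.47, 0.680, 4.16 and 0.0545 in CON rats 1 to 5 and 0.556, 4.73, 1.72, 0.702 and 5.88 in KYDS rats 1 to 5. In the BGZ_L group Spp1 was 3.83 in rat 4, listed at 0 in rat 1 and at 0.158 or less in the other 3. Sox9 had its 4 highest values in rats CON 2, BGZ_L 4, CON 4 and CON 1, from 2.25 down to 1.17, and every other rat was at or under 0.728.

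Against CON, 0 of 5 cholangiocyte markers passed by limma in KYDS, and 1 of 5 had an unadjusted p under 0.05, where 24% of all genes did. That gene was Sox9, at 1.11 ± 0.75 in CON and 0.370 ± 0.11 in KYDS (SD, n = 5; -0.77 ± 0.33 log2, limma adjusted p = 0.151). In KYDS+BGZ_L against BGZ_L 0 of 5 passed by limma and 1 of 5 had an unadjusted p under 0.05, where 32.3% of all genes did. There it was Epcam, at 0.813 ± 0.42 and 2.12 ± 0.87 (SD, n = 5; 0.99 ± 0.42 log2, limma adjusted p = 0.107), which passed when only these 2 groups were fitted (limma adjusted p = 0.0326). The limits of the other 95% intervals reached from -1.79 to 2.23 on the log2 scale, so sizeable differences in either direction lie within them.

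**Figure D4:**
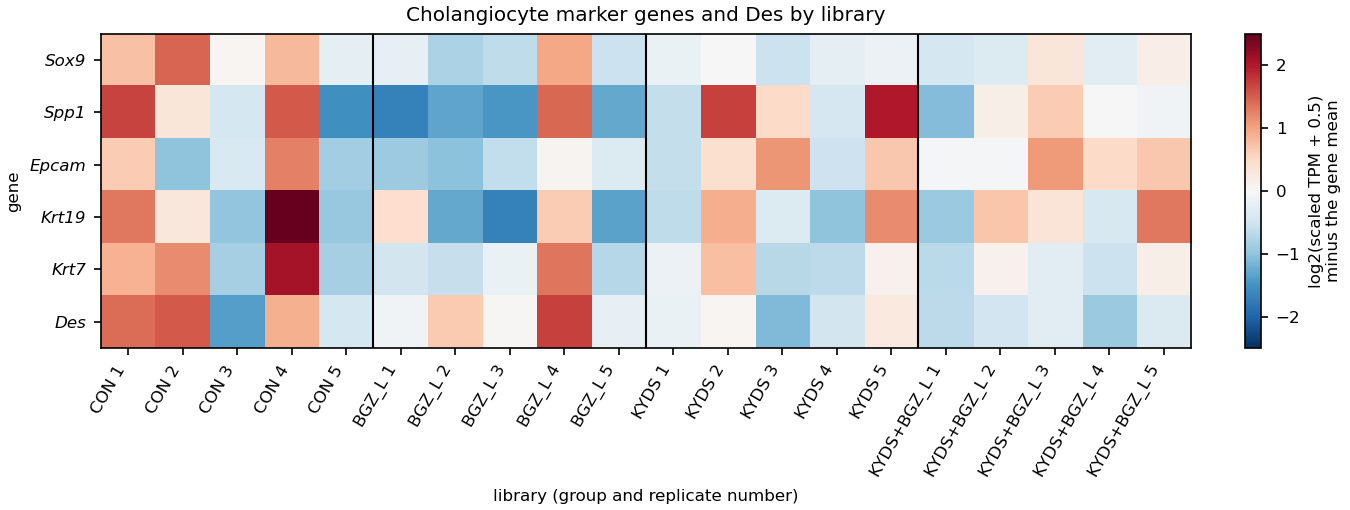
Log2 of scaled TPM plus 0.5, minus each gene's mean over 20 libraries (colour), for the 5 cholangiocyte markers and Des (rows) in each library (columns, black lines between groups). Columns that are red in most rows include CON 1, CON 4, BGZ_L 4, KYDS 2 and KYDS 5, while CON 3 and CON 5 are mostly blue.

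Across rats the cholangiocyte markers went up and down together. After group means were removed, the 10 pairs among them had Pearson correlations of 0.289 to 0.817 with a median of 0.711 over 20 libraries. Krt19 with Krt7 gave 0.817 (Spearman 0.797, and 0.726 without the 2 libraries farthest from the median), Spp1 with Krt7 0.795 and Sox9 with Krt7 0.788. The lowest was Sox9 with Epcam at 0.289. Under other scalings the median of the 10 pairs was 0.709 to 0.840. The 0.840 came with no scaling, where 44.7% of all genes reached 0.5 with Krt19. These points share their libraries, and the correlations are given as a description. The markers also went with the library's scaling factor (log2) within groups to different degrees. These correlations were 0.569 for Epcam, 0.449 for Spp1, 0.349 for Krt19, 0.259 for Krt7 and 0.0368 for Sox9. Their part in the shared pattern was not tested. Rat CON 4 was among the 4 highest libraries for all 5 markers and rat CON 1 for 4 of them. Rats CON 3 and CON 5, with the same treatment, were among the 4 highest for none. High rats were not confined to CON. Rat KYDS 5 was among the 4 highest for 3 markers, and rats BGZ_L 4 and CON 2 for 2 each. Rats KYDS 5, KYDS 2 and BGZ_L 4 were among the 10 highest for all 5.

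The stellate markers showed no such shared pattern. Their 10 pairs had within-group correlations of -0.571 to 0.431 with a median of -0.158 (0.254 with no scaling and 0.0826 on TPM of nuclear genes). Pdgfrb and Fn1 correlated at 0.771 over all 20 libraries but at 0.123 once group means were removed. Des sided with 4 of the 5 bile duct genes, at 0.823 with Krt7, 0.784 with Sox9, 0.684 with Spp1 and 0.626 with Krt19, and stood at 0.235 with Epcam. Lrat went the opposite way from Krt19, at -0.699 (-0.589 without the 2 farthest libraries), but this value depended on the scaling. It was -0.305 with no scaling (-0.137 without the 2 farthest libraries) and -0.376 on TPM of nuclear genes.

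**Figure D5:**
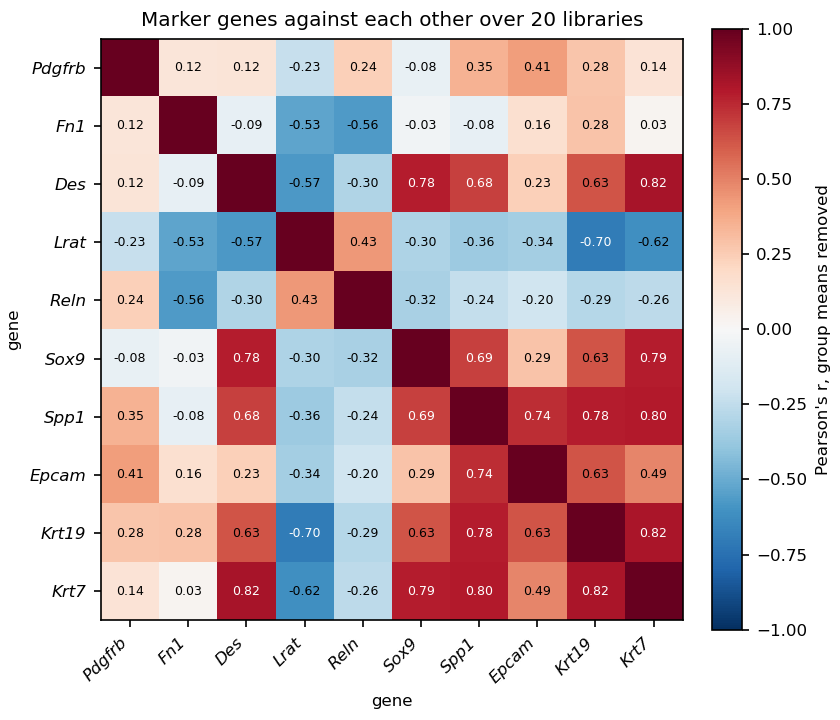
Pearson correlations of log2 scaled TPM between the 10 marker genes over 20 libraries after removal of group means, from -1 (blue) to 1 (red). The 5 cholangiocyte markers form a red block at the lower right (0.289 to 0.817), Des joins 4 of its 5 genes (0.626 to 0.823) but not Epcam (0.235), and the stellate pairs at the upper left reach no higher than 0.431.

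Genes of a list for smooth muscle and portal fibroblasts followed the same rat-to-rat pattern. All 8 tested genes of that list correlated with Krt19 within groups at 0.5 or more (median 0.768), where 6.56% of all genes did, and 7 of 8 did so with Des (median 0.680), where 7.72% of all genes did. Without rat CON 3 the count with Krt19 was 5 of 8, with a median of 0.738. With no scaling it was 8 of 8 with Krt19, where 44.7% of all genes reached 0.5. Of 14 other cholangiocyte genes tested, 7 reached 0.5 with Krt19, led by Muc1 at 0.923, a mucin of ductal surfaces. Of 18 other stellate genes only 1 did, Acta2 at 0.839, which is smooth muscle actin and is shared by vessel walls and activated stellate cells (chosen for mention after its value was seen). Of 2 mesothelial genes 1 did, Msln (mesothelin) at 0.869, above all 8 smooth muscle and fibroblast genes, and it stood at 0.688 with Des. Of 11 endothelial genes 1 did, Vwf (von Willebrand factor) at 0.647, and both were chosen for mention after their values were seen. Of 8 hepatocyte and 11 Kupffer cell genes 0 did.

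The 12 smooth muscle and fibroblast genes of that list found in the table, 8 of them tested, summed to 15.0 to 69.5 scaled TPM in CON, 9.06 to 48.7 in BGZ_L, 11.7 to 57.2 in KYDS and 16.4 to 42.8 in KYDS+BGZ_L libraries. By limma, 0 of 8 passed in KYDS against CON and 0 of 8 had an unadjusted p under 0.05. The smallest p belonged to Fbln1 (fibulin-1, -0.44, limma adjusted p = 0.359) and Myh11 (smooth muscle myosin, -0.71, limma adjusted p = 0.380).

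Upstream sequence was available for 5 of the 10 genes in the RefSeq promoter table of build GRCr8, and 3 are shown because Des varied with most duct genes from rat to rat, Epcam is the duct gene it followed least, and Lrat went against Krt19. Each line is the 200 bases before the annotated start, on the gene's strand, with matches to the searched motifs in capitals, other than the short E-box, which is left in lower case.
Des, chr9:84299426-84299625, + strand: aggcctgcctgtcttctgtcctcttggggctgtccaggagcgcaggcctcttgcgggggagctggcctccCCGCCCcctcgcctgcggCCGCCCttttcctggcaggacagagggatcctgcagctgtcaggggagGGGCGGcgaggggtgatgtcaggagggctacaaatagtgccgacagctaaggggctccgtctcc
Epcam, chr6:12649679-12649878, - strand: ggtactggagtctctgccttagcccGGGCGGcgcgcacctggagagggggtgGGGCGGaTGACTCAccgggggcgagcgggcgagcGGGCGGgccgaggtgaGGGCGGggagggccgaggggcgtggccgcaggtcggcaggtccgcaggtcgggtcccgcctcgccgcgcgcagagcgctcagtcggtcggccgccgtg
Lrat, chr2:170571213-170571412, - strand: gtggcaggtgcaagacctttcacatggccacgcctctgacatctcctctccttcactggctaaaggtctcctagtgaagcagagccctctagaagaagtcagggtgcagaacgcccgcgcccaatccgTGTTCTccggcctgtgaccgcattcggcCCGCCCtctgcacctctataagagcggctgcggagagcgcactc
The motifs searched on both strands were the GC box GGGCGG, the TATA box TATAAA, the Notch effector site TGGGAA, the AP-1 site TGANTCA, the TEAD site GGAATG, the SOX site ACAATG, the MEF2 site CTATTTTT, the glucocorticoid receptor motif TGTTCT, the E-box CANNTG and the CArG box of muscle genes. The Des window holds 3 GC boxes, the Epcam window 4 GC boxes and an AP-1 match between them, and the Lrat window 1 GC box and 1 glucocorticoid receptor motif. E-boxes number 1 in the Des, 1 in the Epcam and 2 in the Lrat window. Of 33469 such windows, 28.6% hold a GC box, 4.97% an AP-1 match, 14.2% a glucocorticoid receptor motif, 57.0% an E-box and 1.16% a CArG box. Their GC content is 68.0% for Des, 78.5% for Epcam and 60.5% for Lrat, against a median of 52.0%. These matches describe the letters of the windows only.

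Partners of the marker genes gave few calls, and their counts are read against all genes, of which 6.27% passed in KYDS against CON and 17.4% in KYDS+BGZ_L against BGZ_L (24% and 32.3% had an unadjusted p under 0.05). PDGF ligands, which act on Pdgfrb, had 0 of 3 tested genes called by limma in both comparisons of hydrocortisone with its control (2 and 1 had an unadjusted p under 0.05). The smallest p belonged to Pdgfc (0.59 and 0.51, limma adjusted p = 0.112 and 0.115). Pdgfc did pass in KYDS+BGZ_L against CON, at 0.91 higher (limma adjusted p = 0.0161), where 11.5% of all genes passed. Of 7 receptors of fibronectin and osteopontin, 0 passed in KYDS against CON by limma (1 had an unadjusted p under 0.05), where Sdc4 (syndecan-4) was 1.43 higher (limma adjusted p = 0.0562). In KYDS+BGZ_L against BGZ_L, Sdc4 rose by 1.65 and Itga5, the alpha chain of the classical fibronectin receptor, by 0.88 (limma adjusted p = 0.0150 and 0.0352), and Itga9 fell by 1.34 (limma adjusted p = 0.0248). The call of Itga5 held in 13 of 20 fits without 1 library. Of 5 reelin pathway genes, 0 passed in KYDS against CON by limma and 0 had an unadjusted p under 0.05. In KYDS+BGZ_L against BGZ_L 1 passed, Vldlr, a reelin receptor, at means of 0.0673 in BGZ_L and 0.384 in KYDS+BGZ_L (0.63 higher, limma adjusted p = 0.0428). That call held in 9 of 20 fits without 1 library. Vldlr did not exceed 0.927 scaled TPM in any library. Its means were 0.500 in CON and 0.354 in KYDS (-0.21, limma adjusted p = 0.571). The low group was thus BGZ_L, at -0.77 against CON (limma adjusted p = 0.396).

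Vitamin A handling was followed through 11 tested genes, of which 0 rose in KYDS against CON by limma (4 had an unadjusted p under 0.05, as did 24% of all genes) and 4 rose in KYDS+BGZ_L against BGZ_L, where 8.82% of all genes rose. These were Dgat1, which can esterify retinol, at 1.22 ± 0.30, Rbp4, the plasma carrier of retinol made by hepatocytes, at 1.93 ± 0.51, and the retinal and retinol dehydrogenases Dhrs3 at 1.07 ± 0.33 and Rdh10 at 1.04 ± 0.36 (log2, SE; limma adjusted p from 0.0104 to 0.0492). The call of Rdh10 held in 6 of 20 fits without 1 library. Lrat itself was not among them. The list's median was 0.27 and 0.48 in these comparisons. In KYDS+BGZ_L against CON 3 of the 11 rose, where 11.5% of all genes passed. They were Aldh1a1 by 1.68, Rbp4 by 1.62 and Lipa by 1.22 (log2, limma adjusted p from 0.0419 to 0.0492).

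Of 14 other cholangiocyte genes, 1 rose in KYDS against CON, where 3.25% of all genes rose. Those that rose in KYDS+BGZ_L against BGZ_L, where 8.82% of all genes rose, included Cdh1 and Spint2, and none fell in either comparison. An unadjusted p under 0.05 was found for 2 and 6 of the 14 (24% and 32.3% of all genes). Cdh1, the epithelial cadherin found on hepatocytes as well as ducts, rose by 1.73 ± 0.37 and 1.302 ± 0.37 (log2, SE; limma adjusted p = 0.0129 and 0.0205). Spint2, a protease inhibitor, rose by 2.19 ± 0.61 in the second comparison (log2, SE, limma adjusted p = 0.0188). In that comparison the calls of Cdh1 and Spint2 each held in 17 of 20 fits without 1 library and in 9 of 12 other settings. Of 10 Notch and YAP pathway genes, which govern duct formation, 0 passed in the first comparison by limma, and 3 had an unadjusted p under 0.05. Of the same 10, 2 fell in KYDS+BGZ_L against CON, Notch1, a Notch receptor, by 1.19 ± 0.32 and Ccn2, a secreted target of YAP, by 1.19 ± 0.35 (log2, SE; limma adjusted p = 0.0237 and 0.0370), where 11.5% of all genes passed.

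Other cell types gave few calls beside these. Of 11 endothelial genes 0 passed by limma in either comparison (0 and 2 had an unadjusted p under 0.05), and of 2 mesothelial genes 0 (1 and 0). Of 11 Kupffer cell genes 1 rose in each (3.25% and 8.82% of all genes rose), Cd163, the haemoglobin scavenger receptor, by 1.84 ± 0.40 and 1.36 ± 0.40 (log2, SE; limma adjusted p = 0.0151 and 0.0258).

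The genes whose pattern over 20 libraries was most like each marker were searched among 10361 genes by Pearson's r. Fn1 was matched by Slc6a9, a glycine transporter, at 0.980, and Cers2, a ceramide synthase, at 0.961. Pdgfrb was matched by Nim1k, a protein kinase, at 0.933 and Paqr9 at 0.902, and these fell to 0.574 and 0.473 within groups. Krt19 was matched by Anxa13, an annexin of epithelia, at 0.932 and Muc1 at 0.922, and Krt7 by Fxyd3 at 0.881 and Ptgds at 0.868. Spp1 was matched by Cnn1, the smooth muscle calponin, at 0.858 and Lgals2 at 0.849. Des was matched by Itgb4, an integrin of epithelial basement membranes, at 0.906 and Glis3 at 0.864. Sox9 was matched by Paqr6 at 0.881 and Smarcd3 at 0.875, Epcam by Cd9 at 0.815 and Snrpe at 0.806, Lrat by Galnt1 at 0.913 and Mpp5 at 0.886, and Reln by Rhot1 at 0.835 and Luc7l3 at 0.829. For Reln the rank correlations were lower, at 0.623 and 0.487.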

How the data were processed

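Liver RNA of 20 male rats, 1 library each, was sequenced from TruSeq libraries, and only read 1 was analysed, per the labels. The deposited values were read as TPM, inferred from 2 decimals and sums close to the fixed total of that unit, though the authors' file is named as raw counts. Aligner, counting tool and build are, for these values, not given in the sources used here. Mouse builds stand in the submitters' processing notes (GRCm38, mm10 and GRCm39), while gene identifiers are rat.

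TPM were scaled by an unweighted trimmed mean of log ratios (30% of ratios and 5% of levels trimmed). Genes with at least 0.5 scaled TPM in at least 5 libraries (11867) were tested as log2 of scaled TPM plus 0.5, which understates fold changes of low genes. A limma model of the 4 group means was used (16 residual degrees of freedom, trended robust prior), two-sided, with Benjamini-Hochberg adjustment over all genes and a threshold of 0.05. The fit used limma 3.58.1 under R 4.3.3, and figures matplotlib 3.10.9. The fit was tested on simulated data.

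The 33 identifiers without a symbol were left out. Depth is unknown, so no detection limit was computed. The marker genes and the 12 other lists were chosen with earlier results of these data known. The rule named all 10 markers, the 2 genes of each list with the smallest p in a comparison, any that passed, and for each marker the 2 genes most like it; a gene that the rule took is not reported here. Same-numbered rats did not deviate together (7 of 30 pairs above 0.1, from -0.458 to 0.335), so no block was used. No 2 libraries had identical values. Alternatives changed the scaling, the added constant, the filter, the prior, a covariate, the block and the libraries used.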

Additional observations from a re-analysis of the deposited data

Results flagged for a closer look

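Among 40 sets of 5 rats (10 genes in 4 groups), 3 held a rat whose gap to the nearest other was larger than Dixon's 95% limit for the share of the group's range on the log2 scale, and chance gives about 1 in 20 sets. Pdgfrb was 4.42 scaled TPM in rat CON 1, where the next CON rat had 1.88. Spp1 was 3.83 in rat BGZ_L 4, where the next had 0.158. Krt7 was 1.73 in the same rat, where the next had 0.290. Rat BGZ_L 4 also had the highest Des value of all rats, at 7.20.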

How the results depend on the processing

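Counts of marker genes called were within 1.5 times of those reported under every alternative except these. With each library's nuclear to mitochondrial ratio as a covariate, KYDS against CON called 0 and KYDS+BGZ_L against CON called 1 (Pdgfrb), and leaving out 1 rat gave 1 to 3 for the latter comparison and no other count. With the replicate number as a block the counts were 2 for each of the 3 comparisons with calls and 0 for the other 3, as without it. Without rats CON 2 and BGZ_L 3, an alternative added after the data were seen, no count changed.

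No scaling moved the median fold change of all genes to 1.03 in KYDS against CON and 0.63 in KYDS+BGZ_L against BGZ_L, and 98.9% and 88.6% of calls were then higher (51.9% and 50.8% with scaling). Pdgfrb and Fn1 stayed 2.04 and 2.48 above that median in the first and 2.29 and 2.80 in the second. Under no scaling the sign turned in KYDS against CON for Krt19 (0.75), Des (0.34), Reln (0.68), Lrat (0.11) and Vim (0.35), and in KYDS+BGZ_L against BGZ_L for Krt7 (0.00066) and Lrat (0.088), all under the median shift. With the covariate it turned in KYDS against CON for Epcam (-0.26) and Reln (0.024). Leaving out 1 rat gave -0.76 to 0.11 for Krt19 and -0.14 to 0.66 for Spp1 in that comparison, and -0.010 to 0.42 for Sox9 in KYDS+BGZ_L against BGZ_L. None of these passed under the setting that turned the sign, and of these genes only Vim had passed with scaling. Krt7 was tested in 16 of 20 fits without 1 rat. Among 46 results for single genes that were followed, called or not, the covariate ended the call in 26 and TPM over nuclear genes in 18. The 46 include 8 markers in KYDS against CON and 8 in KYDS+BGZ_L against BGZ_L that had no call to lose. Of the followed calls of genes from the other lists, the covariate ended all except Alb in KYDS+BGZ_L against BGZ_L. Alb kept that call in all 12 settings other than leaving out 1 rat. Calls of genes from the other lists in KYDS+BGZ_L against CON were not followed in this way. Scatter between 5 rats per group and unknown depth limit the low genes most.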
